A study of Bos taurus with 18 samples.

Results

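The stromal-restricted genes of the bovine endometrium-on-a-chip were 24 of 36075 genes. They were chosen by their measured levels with vehicle alone: a gene was a member when it reached 20 CPM or more in all 3 stromal samples with vehicle and stayed below 0.5 CPM in all 3 epithelial samples with vehicle. CPM, the usual abundance unit of counts scaled to the total of their sample, were computed without correction for gene length, so CPM are compared here between samples and not between genes. Of all genes, 5209 met the stromal limit and 20748 met the epithelial limit.

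In the device, bovine endometrial epithelial cells (bEECs) grew in a channel with flowing medium, and a porous membrane parted them from a static chamber of bovine endometrial stromal cells (bESCs). The cells of each device were primary cells of 1 animal, taken from uteri collected at an abattoir in the late luteal stage and cultured before use, and their purity was judged by eye. The groups were bEECs and bESCs with PBS as vehicle control (VC), with recombinant bovine CAPG (rbCAPG, a capping protein of actin filaments) or with recombinant bovine PDI (rbPDI, the protein disulfide isomerase encoded by P4HB), each protein at 1 µg/mL for 24 h on the epithelial side, and each of the 6 groups had n = 3 samples. All groups shared the type of device and the 3 animals, and each device received 1 treatment. The 18 libraries held 10072851 to 44253149 counts, the shallowest being bESCs with rbPDI of animal 1.

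Endometrial stromal cells are the fibroblasts that lie under the uterine epithelium. They make the collagen-rich matrix, respond to ovarian steroids and exchange paracrine signals with the epithelium, and in ruminants they are the maternal compartment beneath the luminal cells that first meet the conceptus.

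The VC samples chose the members. The low epithelial and high stromal levels with VC are therefore the rule and not a result, and each comparison with VC shares the samples that fixed the rule. The comparisons between rbPDI and rbCAPG, and between cell types in treated devices, use samples that the rule did not, although from the same animals. In bulk samples, fewer cells of a type and less RNA per cell cannot be told apart. A gene is called here where its log2 fold change exceeds 1 in either direction and its adjusted p is under 0.05, in edgeR's quasi-likelihood test with Benjamini-Hochberg adjustment over 17931 genes, and all 24 members passed the filter on low counts.

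A symbol was known for 2 of the 24 members. They were SST, which encodes the peptide hormone somatostatin, a secreted inhibitor of hormone release, and FAM110B, which encodes a centrosome-associated protein. Both symbols came from lists of genes that the study called with rbCAPG, so their direction in treated bEECs is not independent of how they came to be named. The other 22 members are given by identifier where single values matter, and those identifiers were chosen after their values were seen.

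The cell type labels were checked with the 6 markers that had an identifier. These identifiers came from the same lists of genes called with rbCAPG. HAND2, a transcription factor of endometrial stroma, ran from 0.0709 to 0.573 CPM in bEECs and from 4.66 to 7.74 CPM in bESCs. MUC1, a membrane mucin of the epithelial surface, ran from 207 to 680 CPM in bEECs and from 0.0732 to 1.19 CPM in bESCs. The ranges of both did not overlap between the cell types, and neither did those of ZEB1 and AIF1, whereas those of CD14 and TEK did (values beside the summed level). AIF1, a marker of macrophages, ran from 4.72 to 31.7 CPM in bEECs and reached at most 0.0891 CPM in bESCs. Of 514 entries in 18 lists of cell type markers and stromal gene groups, 52 (10.1%) had an identifier and 0 were members, so no list could be read against the members.

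At the edges of the rule, the 3 members nearest the stromal limit had a lowest VC level of 20.1, 20.7 and 20.7 CPM, and the 3 genes just outside it had 19.8, 19.7 and 17.96 CPM. The highest epithelial VC level of the 3 members nearest the other limit was 0.4999 CPM for each, and that of the genes just outside was 0.529, 0.529 and 0.567 CPM. The same limits set on the rbCAPG samples chose 14 genes, of which 8 were members (33.3% of the members and 57.1% of those genes). On the rbPDI samples they chose 10 genes, of which 5 were members (20.8% and 50%), and these 5 met the limits under all 3 treatments.

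**Figure D1:**
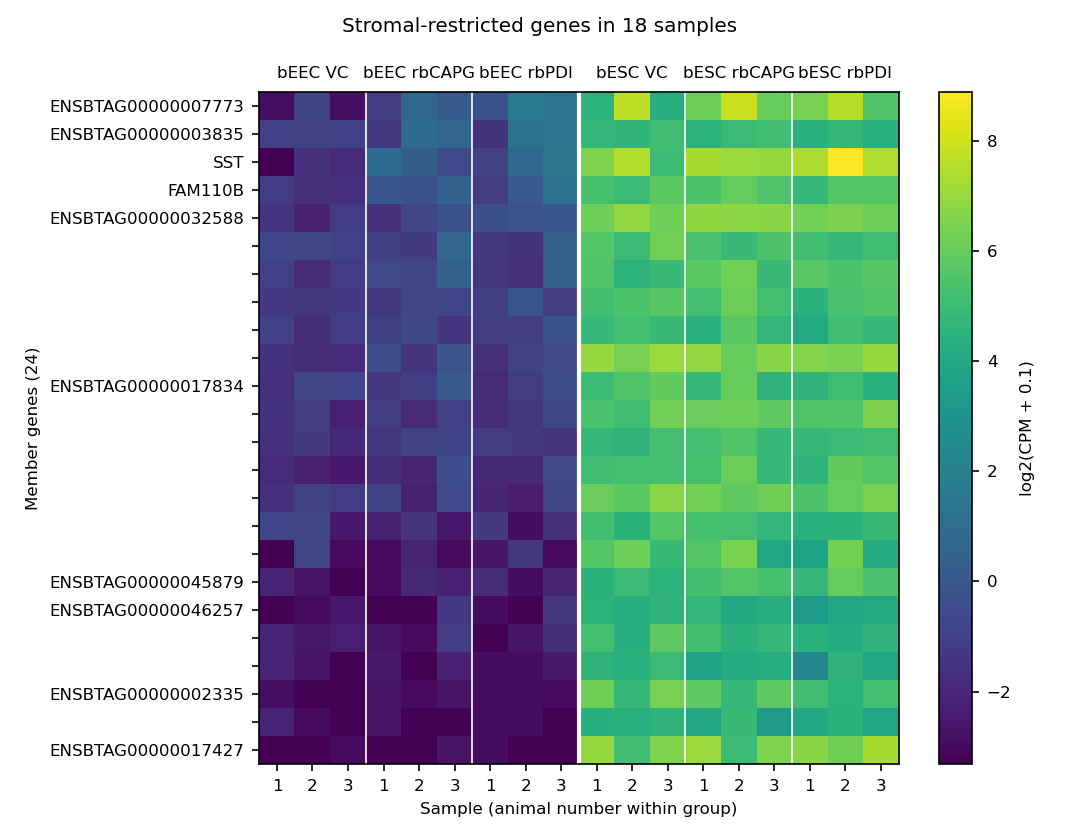
Level of the 24 members (rows, ordered by their mean in bEECs with rbPDI) in the 18 samples (columns, by cell type, treatment and animal), as log2 of CPM plus 0.1 on a colour scale, with names given only for members described by name. Each row is brighter in bESCs than in bEECs, and the top 5 rows brighten in some bEEC samples with rbCAPG or rbPDI.

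In bESCs, the stromal-restricted genes stayed high with either protein, and no member was called. The mean level of a member ran from 22.3 to 115 CPM with VC, from 17.0 to 138 CPM with rbCAPG and from 14.3 to 269 CPM with rbPDI. With rbCAPG, 0 of 24 members were called, against 0.0948% of all genes in either direction, and 0 had an unadjusted p under 0.05. With rbPDI, 0 of 24 were called, against 0.178% of all genes in either direction. An unadjusted p under 0.05 was found for 2 higher and 1 lower members, with no share of all genes given beside it. DESeq2 also called 0 with each protein (all genes, 0.396% and 0.982%), as did the fit with the animal as a block (0.48% and 1.05%). The median log2 fold change of the members was 0.08 with rbCAPG and −0.16 with rbPDI, beside −0.01 and 0.00 over all genes tested. A count of 0 does not show that the genes did not change, since the 95% interval of the log2 fold change lay within 1 of 0 for only 6 of the 24 members with each protein.

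SST was the member with the largest fitted stromal value with rbPDI. In bESCs it had 92.7, 176 and 32.9 CPM with VC, 156, 132 and 125 CPM with rbCAPG, and 166, 472 and 169 CPM with rbPDI, for animals 1, 2 and 3. The sample of animal 2 with rbPDI stood above all others, and the VC samples overlapped those of both proteins. The log2 fold change against VC was 0.48 ± 0.64 (SE) with rbCAPG, at an adjusted p of 1, and 1.49 ± 0.65 with rbPDI, at an adjusted p of 0.873 and an unadjusted p of 0.0365 (edgeR).

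The rbPDI and rbCAPG samples did not take part in the rule and can be set against each other. The 3 rbPDI samples of SST in bESCs lay above the 3 rbCAPG samples, as for 1 of 24 members against 1.83% of all genes, with a log2 difference of 1.01 ± 0.64 (95% interval −0.36 to 2.37) at an adjusted p of 1 in edgeR's test. In bESCs, edgeR called 0 of 24 members and 0% of all genes between the proteins, 0 members had an unadjusted p under 0.05, and DESeq2 called 0 (all genes, 0%). Of the 24 stromal values, 6 were higher and 18 lower with rbPDI than with rbCAPG, with a median log2 difference of −0.18, beside 0.00 over all genes tested. The interval lay within 1 of 0 for 12 members. With the TMM factors of edgeR, only ENSBTAG00000032588 had all its rbPDI samples below its rbCAPG samples in bESCs, 1 of 24 against 2.09%.

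FAM110B was not called in bESCs. It had 40.4, 32.1 and 55.0 CPM with VC, 42.9, 63.7 and 46.5 CPM with rbCAPG, and 28.3, 49.8 and 50.3 CPM with rbPDI. All 3 ranges overlapped. The log2 fold changes were 0.26 ± 0.37 and 0.08 ± 0.37, with adjusted p of 1 for each (edgeR). The second turned to −0.13, −0.05 and −0.11 without the VC sample of animal 2, the rbPDI sample of animal 2 and the rbPDI sample of animal 3.

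The members with the smallest p among lower values in bESCs with rbPDI were ENSBTAG00000002335 and ENSBTAG00000017834. The first had 76.5, 28.9 and 84.3 CPM with VC, 57.7, 28.3 and 57.1 CPM with rbCAPG, and 35.3, 23.8 and 37.8 CPM with rbPDI. Each animal was lower with rbPDI than with VC, but the groups overlapped through the low VC sample of animal 2. The log2 fold change with rbPDI was −0.92 ± 0.38 at an adjusted p of 0.817, and 0.0788 with the animal as a block (edgeR). ENSBTAG00000017834 had 31.7, 46.2 and 62.4 CPM with VC and 24.1, 34.5 and 21.1 CPM with rbPDI, and its log2 fold change was −0.77 ± 0.40 at an adjusted p of 0.992. ENSBTAG00000046257, near the stromal limit of the rule, had 23.5, 20.1 and 24.1 CPM with VC and 9.83, 15.4 and 17.6 CPM with rbPDI. With TMM factors it was the only member whose rbPDI samples all lay below its VC samples in bESCs, 1 of 24 against 3.39% of all genes, with a log2 fold change of −0.58 ± 0.58 at an adjusted p of 1 (edgeR).

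On the higher side in bESCs, ENSBTAG00000045879 had 23.2, 32.1 and 23.9 CPM with VC, 36.1, 49.1 and 40.5 CPM with rbCAPG, and 27.6, 63.5 and 41.9 CPM with rbPDI. Every rbCAPG sample was above every VC sample, which held with TMM factors for 1 of 24 members, against 3.02% of all genes. Its log2 fold changes were 0.68 ± 0.36 and 0.82 ± 0.36, with adjusted p of 1 and 0.869 (edgeR).

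The 3 animals of the bESCs had unlike levels of many members. With log-scale variance split per gene over the 9 stromal samples, the median share between animals was 46.0% of the total for the members and the median share between treatments was 21.1%. Over the 5209 genes above the stromal limit the shares were 41.6% and 10.1%. Between the 3 VC samples, the ratio of the highest to the lowest animal had a median of 1.81 over the members, ran from 1.12 to 9.95, and was above 2 for 10 of 24. Because each treated sample had a VC partner of the same animal, the fit with the animal as a block is given wherever it changed a call.

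**Figure D2:**
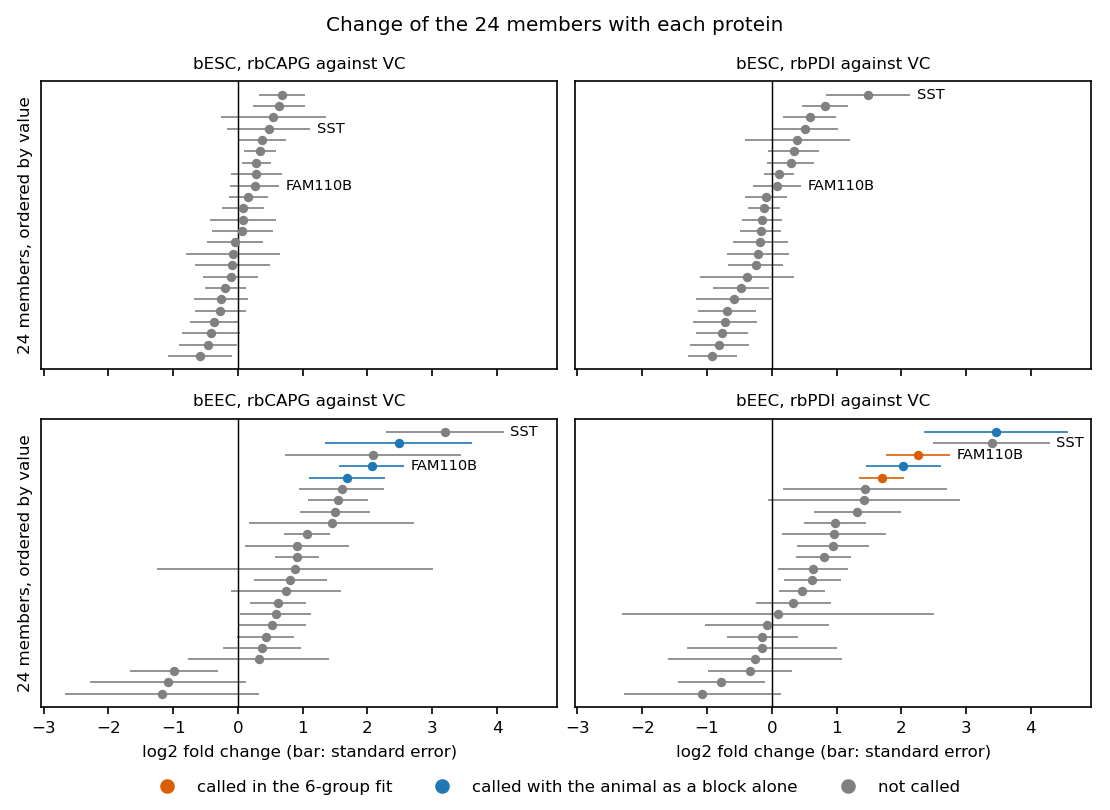
Log2 fold change of each of the 24 members (one point per member, ordered by value; bar, standard error) against VC, for bESCs (top) and bEECs (bottom) with rbCAPG (left) and rbPDI (right). In bESCs the values run from −0.92 to 1.49 and none is called; in bEECs they run from −1.17 to 3.46, with 2 members called with rbPDI and others called by edgeR only with the animal as a block.

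In treated bEECs, the members stayed near the limit of detection, and a few of them were higher than with VC. The members' mean levels in bEECs ran from 0.00874 to 0.472 CPM with VC, from 0.0191 to 1.21 CPM with rbCAPG and from 0.0115 to 2.05 CPM with rbPDI. With rbPDI, FAM110B and ENSBTAG00000032588 were called higher, which was 2 of 24 members, beside 0.77% of all genes called higher. Both calls were lost in the fit to bEECs alone and in 4 of the 6 fits without 1 sample, and 1 was lost in another. With rbCAPG, 0 of 24 were called, beside 0.513%, and 9 had an unadjusted p under 0.05, all higher. No share of all genes at that unadjusted p is given, so the 9 cannot be read as an excess. The fit with the animal as a block called 3 members higher with rbCAPG (all genes, 2.04%) and 4 with rbPDI (2.57%), and DESeq2 called 2 (1.49%) and 5 (1.96%). The median log2 fold change of the members in bEECs was 0.90 with rbCAPG and 0.72 with rbPDI, beside 0.02 and −0.01 over all genes, and 21 and 17 of 24 values were positive. The VC samples of these comparisons are those the rule held below 0.5 CPM, so these calls, counts and medians are a description, and nothing is read from the shares of all genes beside them.

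FAM110B in bEECs had 0.355, 0.235 and 0.210 CPM with VC, 0.871, 0.710 and 1.32 CPM with rbCAPG, and 0.346, 1.02 and 2.33 CPM with rbPDI. The rbCAPG samples lay above all VC samples. With rbPDI, animal 1 was within the VC range on this scale, and animals 2 and 3 were above it. With the TMM factors of edgeR, animal 1 was just above it, at 0.426 CPM beside a highest VC value of 0.302 CPM. The underlying counts were 8 to 10 with VC and 10, 33 and 81.5 with rbPDI. The log2 fold change with rbPDI was 2.26 ± 0.50 at an adjusted p of 0.0421, and with rbCAPG it was 2.07 ± 0.50 at an adjusted p of 0.0993, or 0.0341 with the animal as a block (edgeR). The rbPDI call was lost without any 1 of 5 of the 6 samples, all but the rbPDI sample of animal 1, and in the fit to bEECs alone, with log2 fold changes of 1.56 to 2.36 in those fits.

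SST in bEECs had 0, 0.235 and 0.184 CPM with VC, 1.83, 1.12 and 0.544 CPM with rbCAPG, and 0.415, 1.61 and 2.75 CPM with rbPDI. These were 0, 8 and 7 counts, then 63, 41 and 19 counts, then 12, 52 and 96 counts. Every treated sample was above every VC sample. With TMM factors, groups that did not overlap and were higher than VC were found for 6 of 24 members with rbCAPG, beside 8.72% of all genes, and for 6 with rbPDI, beside 8.06%, again as a description. The animal with the highest level differed between the proteins: it was animal 1 with rbCAPG and animal 3 with rbPDI. The log2 fold change was 3.19 ± 0.91 with rbCAPG and 3.39 ± 0.90 with rbPDI, with adjusted p of 0.193 and 0.105 in edgeR, 0.0913 and 0.0537 with the animal as a block, and 0.0154 and 0.00646 in DESeq2.

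ENSBTAG00000032588 had the smallest p of the members in bEECs with rbPDI. It had 0.266, 0.118 and 0.341 CPM with VC, 0.232, 0.491 and 0.687 CPM with rbCAPG, and 0.675, 0.772 and 0.859 CPM with rbPDI. The rbPDI samples were close together and above all VC samples, whereas those with rbCAPG overlapped VC. The log2 fold change with rbPDI was 1.70 ± 0.35 at an adjusted p of 0.0254 (edgeR). In bESCs the same gene had 73.6, 121 and 73.7 CPM with VC and 76.9, 88.5 and 71.8 CPM with rbPDI, a log2 fold change of −0.12 ± 0.25. The difference between the changes of the cell types was 1.82 ± 0.43 on the log2 scale, with an adjusted p of 0.217 in edgeR and 0.0133 in DESeq2. Without the VC sample of animal 1 or 2, or the rbPDI sample of animal 2 or 3, 0 members were called in bEECs with rbPDI, and without the VC sample of animal 3 there was 1. For the interaction of each protein with cell type, 0 of 24 members were called in edgeR. Of all genes, 0.0669% were called in either direction for rbCAPG and 0.0948% for rbPDI. At an unadjusted p under 0.05 there were 4 members for each protein, with no share of all genes given beside them. DESeq2 called 0 and 1 (all genes, 0.273% and 0.485%).

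A pair of other members were called by edgeR in bEECs only when the animal was a block. ENSBTAG00000007773 had 0.0355, 0.463 and 0.0393 CPM with VC, 0.348, 1.65 and 0.974 CPM with rbCAPG, and 0.744, 3.02 and 2.40 CPM with rbPDI. Animal 2 was the highest in all 3 groups, and it was also the highest in bESCs with VC, where the animals had 23.6, 206 and 20.7 CPM. The log2 fold change of this gene with rbPDI in bEECs was 3.46 ± 1.11, with an adjusted p of 0.235 without the block and 0.00119 with it, and 0.0379 in DESeq2. With rbCAPG it was 2.49 ± 1.13, with an adjusted p of 0.660 without the block and 0.0227 with it (edgeR), and 0.328 in DESeq2. Its counts were not whole in 13 of 18 samples, so it shared reads with other genes or places.

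ENSBTAG00000003835 had 0.390, 0.412 and 0.420 CPM in bEECs with VC, 0.290, 1.86 and 1.49 CPM with rbCAPG, and 0.242, 2.22 and 2.49 CPM with rbPDI. On this scale animal 1 did not exceed its VC level with either protein, and animals 2 and 3 did with both. With TMM factors animal 1 had 0.332 CPM with VC, 0.413 CPM with rbCAPG and 0.298 CPM with rbPDI, so it was above its VC level with rbCAPG. Its adjusted p with the animal as a block was 0.0443 with rbCAPG and 0.0116 with rbPDI, and without the block 0.390 and 0.149 (edgeR). DESeq2 gave 0.0764 and 0.00796.

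**Figure D3:**
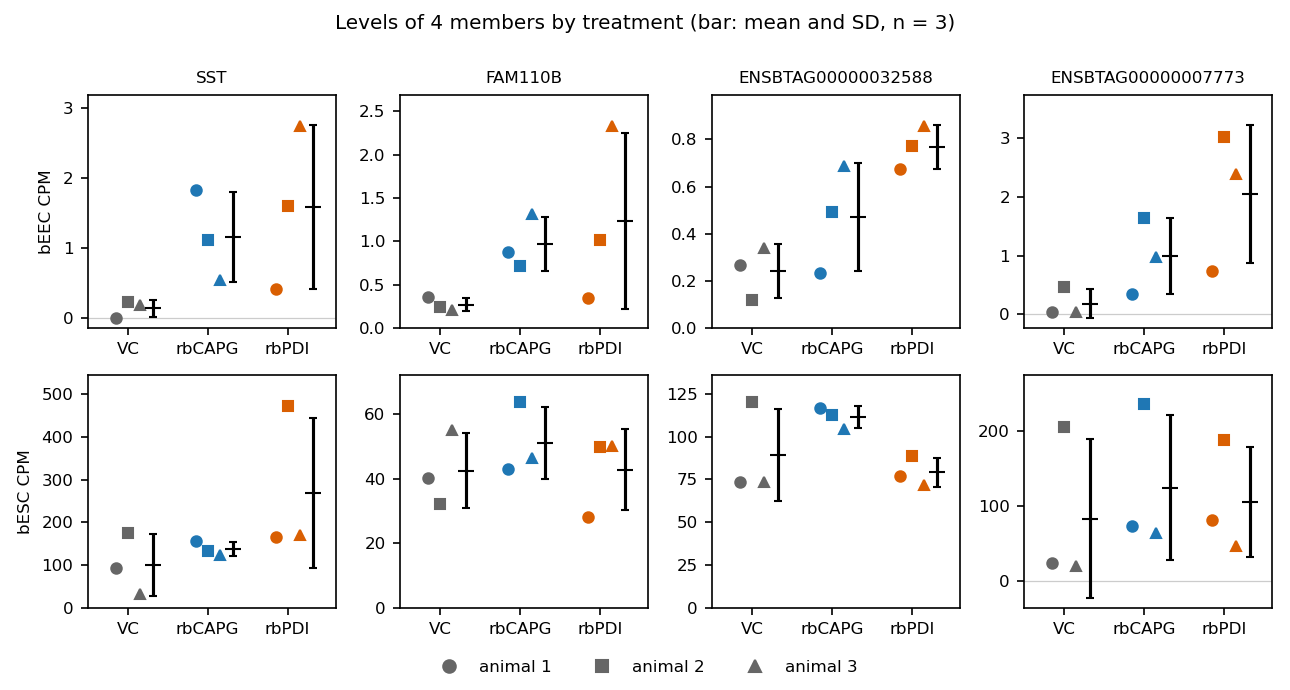
CPM of SST, FAM110B, ENSBTAG00000032588 and ENSBTAG00000007773 in bEECs (top) and bESCs (bottom) by treatment, with a linear axis of its own in each panel; symbols mark the 3 animals and the black marks give the mean and SD (n = 3). SST in treated bEECs lies between 0.415 and 2.75 CPM, above VC, while in bESCs the treatments overlap VC.

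Against each other, the proteins gave no call among the members in bEECs. Of the 24 differences between rbPDI and rbCAPG, 12 were positive and 12 negative, with a median of 0.00 on the log2 scale, beside −0.02 over all genes, and 0 of 24 members and 0% of all genes were called by edgeR. At an unadjusted p under 0.05 there were 0 members, and DESeq2 called 0 (all genes, 0%). The 95% interval lay within 1 of 0 for 0 of the 24, so at this depth these data do not show that the proteins act alike on the members. The smallest p was that of ENSBTAG00000032588, with a log2 difference of 0.64 (95% interval −0.04 to 1.31) and an adjusted p of 1 (edgeR). On the CPM scale, 2 of its rbPDI samples lay above the highest rbCAPG sample and 1 lay below it, and with TMM factors all 3 lay above, as for 1 of 24 members against 2.14% of all genes.

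A member was counted as present in treated bEECs where it reached the rule's own limit, 0.5 CPM, in all 3 samples of a group. With rbCAPG these were 2 of 24, SST and FAM110B, and with rbPDI they were also 2 of 24, ENSBTAG00000007773 and ENSBTAG00000032588. On this scale no member was present with both proteins. With TMM factors, a scaling added after the values were seen, 3 members were present with each protein, ENSBTAG00000006507 being added with rbCAPG and SST with rbPDI, so SST was then present with both. With those factors ENSBTAG00000007773, counted with rbPDI, already had 0.512 CPM in the bEEC VC sample of animal 2. In the bESC VC sample of animal 3 it had 19.1 CPM, so it met neither limit of the rule on the TMM scale. Among the 20748 genes below 0.5 CPM in bEECs with VC, 0.183% were present with rbCAPG and 0.342% with rbPDI. At least 1 treated sample reached the limit for 12 members with rbCAPG and 14 with rbPDI. Samples of animal 3 held most of these, with 11 members at the limit with rbCAPG and 13 with rbPDI, against 4 and 2 in animal 1 and 5 and 6 in animal 2. Without animal 1 the count present in all remaining samples was 4 with rbCAPG and 5 with rbPDI, and without animal 2 it was 4 with rbCAPG.

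With the genes below 0.5 CPM in bEECs with VC divided by their lowest stromal VC level, a division chosen after the values were seen, the share present in treated bEECs was larger where the stromal level was higher. Below 0.5 CPM in bESCs, 0.160% of 19966 genes were present with rbCAPG and 0.280% with rbPDI. From 0.5 to 5 CPM the shares were 0.467% and 1.56% of 642 genes, from 5 to 20 CPM they were 0.862% and 2.59% of 116 genes, and for the members they were 8.33% for each protein. These are 2 of 24 genes in the last class and 1 and 3 genes in the class before it. The median VC level in bEECs also differed between these classes, from 0.00175 CPM in the lowest to 0.222 CPM among the members, and its part in the shares was not tested.

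The summed CPM of the 24 members in bEECs was 5.09, 5.80 and 4.31 with VC, 7.77, 9.77 and 13.5 with rbCAPG, and 5.68, 12.4 and 18.3 with rbPDI, for animals 1 to 3. Every rbCAPG sum was above every VC sum, and with rbPDI the sum of animal 1 fell within the VC range on this scale. With TMM factors, also added, the sums were 4.33, 6.31 and 4.92 with VC, 11.1, 10.7 and 14.0 with rbCAPG, and 6.998, 13.7 and 17.1 with rbPDI, and every treated sum was above every VC sum. In bESCs the sums were 1168, 1259 and 1281 with VC, 1349, 1516 and 1145 with rbCAPG, and 1026, 1648 and 1283 with rbPDI, and all groups overlapped. The ratio of group means in bEECs was 2.04 with rbCAPG and 2.39 with rbPDI. Per animal it was 1.53, 1.68 and 3.12 with rbCAPG and 1.12, 2.14 and 4.23 with rbPDI, so animal 3 gave the largest ratio with each protein. With TMM factors the ratio of animal 1 was 2.55 with rbCAPG and 1.61 with rbPDI, and animal 3 again had the largest, at 2.85 and 3.48. In bESCs the ratios of means were 1.08 and 1.07. The rule held every member below 0.5 CPM in bEECs with VC and set no limit on treated samples. The sums and their ratios to VC are therefore a description.

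As a share of the sum in bESCs of the same animal and treatment, the sum in bEECs was 0.435%, 0.461% and 0.337% with VC, 0.576%, 0.645% and 1.18% with rbCAPG, and 0.554%, 0.753% and 1.42% with rbPDI. All 6 treated shares were above all 3 VC shares. The rule fixed low bEEC and high bESC levels with VC alone, so these shares and the gains below are a description too. The gain was uneven among the members. SST, FAM110B, ENSBTAG00000007773 and ENSBTAG00000003835, picked after their values were seen as those that gained most, held 63.4% of the net gain in CPM with rbCAPG and 78.5% with rbPDI.

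**Figure D4:**
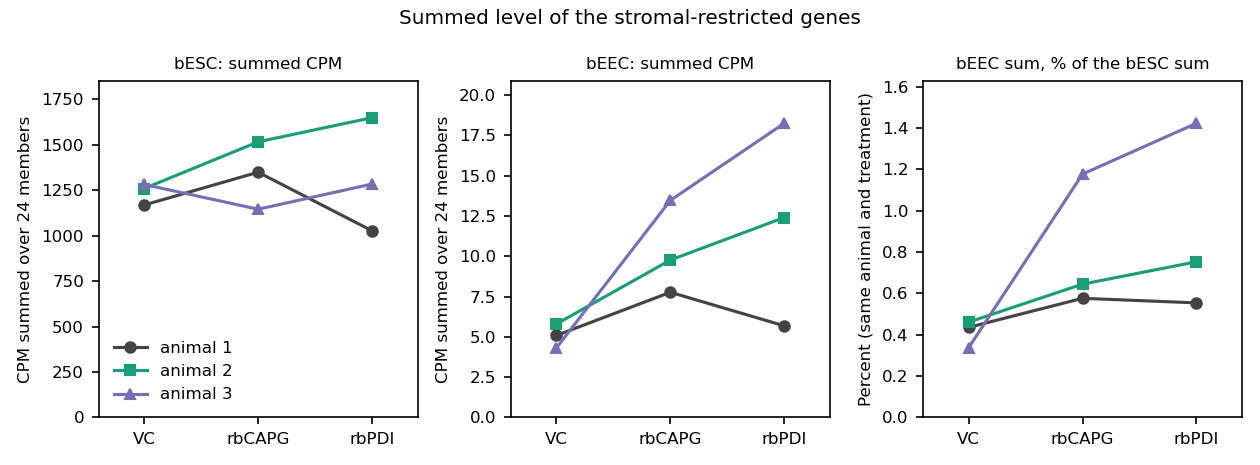
Summed CPM of the 24 members in bESCs (left) and bEECs (middle), and the bEEC sum as a percentage of the bESC sum (right), by treatment; each line joins the samples of 1 animal and all axes start at 0. The bEEC sum runs from 4.31 to 5.80 CPM with VC and reaches 18.3 CPM in animal 3 with rbPDI, while the bESC sums stay between 1026 and 1648 CPM.

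The ratio between the cell types was not the same for all members of a sample. In animal 3 with rbPDI, where the sum in bEECs was 1.42% of that in bESCs, the ratio of single members ran from 0% to 11.1%, the highest being ENSBTAG00000003835, with a median of 0.801%. FAM110B stood at 4.64% and SST at 1.62% in that pair. At the other end, ENSBTAG00000017427, picked after its values were seen, had 106, 76.4 and 158 CPM in bESCs with rbPDI and 1, 0 and 0 counts in bEECs. The reason for the unlike ratios of the members was not tested. Across the 9 bEEC samples ENSBTAG00000017427 never exceeded 2 counts, while its bESC level ran from 32.9 to 158 CPM. A count of 0 allows up to 3 counts, which is 0.0859 CPM in the bEEC library of animal 3 with rbPDI. This floor covers counting error only.

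Each of the 6 markers with an identifier was also higher in treated bEEC samples than in some or all of those with VC. All 6 were named from genes the study called with rbCAPG. Their direction in treated bEECs is therefore not independent of how they came to be named, and nothing is read from it. ZEB1, a transcription factor of mesenchymal cells, had 1.88, 2.50 and 2.05 CPM in bEECs with VC, 2.44, 5.05 and 12.1 CPM with rbCAPG, and 3.15, 6.33 and 10.8 CPM with rbPDI, and was highest in animal 3 with each protein, as was the summed level of the members. In bESCs it ran from 24.1 to 49.6 CPM. HAND2 in bEECs had 0.0709, 0.176 and 0.0787 CPM with VC, 0.290, 0.573 and 0.372 CPM with rbCAPG, and 0.104, 0.185 and 0.401 CPM with rbPDI. Every rbCAPG sample of HAND2 was above every VC sample, and the rbPDI samples overlapped VC. HAND2 stood near the limit of detection in bEECs with VC. Only 2 of the 12 genes in the stromal marker list had an identifier, so the list as a whole has no summed level.

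For the markers of immune, endothelial and epithelial cells with an identifier, every treated bEEC sample was above every VC sample. They too were named from genes the study called with rbCAPG, so this is a description and not a result about these cell types. With TMM factors, groups that did not overlap and were higher than VC made up 8.72% of all genes with rbCAPG and 8.06% with rbPDI. TEK stood near the limit of detection in bEECs with VC. CD14, a lipopolysaccharide co-receptor of monocytes and macrophages, ran from 5.10 to 10.2 CPM in bEECs with VC, from 15.1 to 31.2 CPM with rbCAPG and from 26.7 to 44.5 CPM with rbPDI, and from 4.71 to 24.4 CPM in bESCs. AIF1 ran from 4.72 to 13.0 CPM with VC, from 16.3 to 28.0 CPM with rbCAPG and from 16.3 to 31.7 CPM with rbPDI. These were 2 of 10 immune markers. TEK, the angiopoietin receptor and 1 of 9 endothelial markers, ran from 0.0443 to 0.118 CPM with VC, from 0.290 to 0.792 CPM with rbCAPG and from 0.450 to 0.803 CPM with rbPDI, and from 0.0904 to 0.534 CPM in bESCs. MUC1, 1 of 15 epithelial markers, ran from 207 to 407 CPM with VC, from 497 to 672 CPM with rbCAPG and from 627 to 680 CPM with rbPDI. The part of stromal or other cells, or of their RNA, in the levels of the members in bEECs was not tested.

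**Figure D5:**
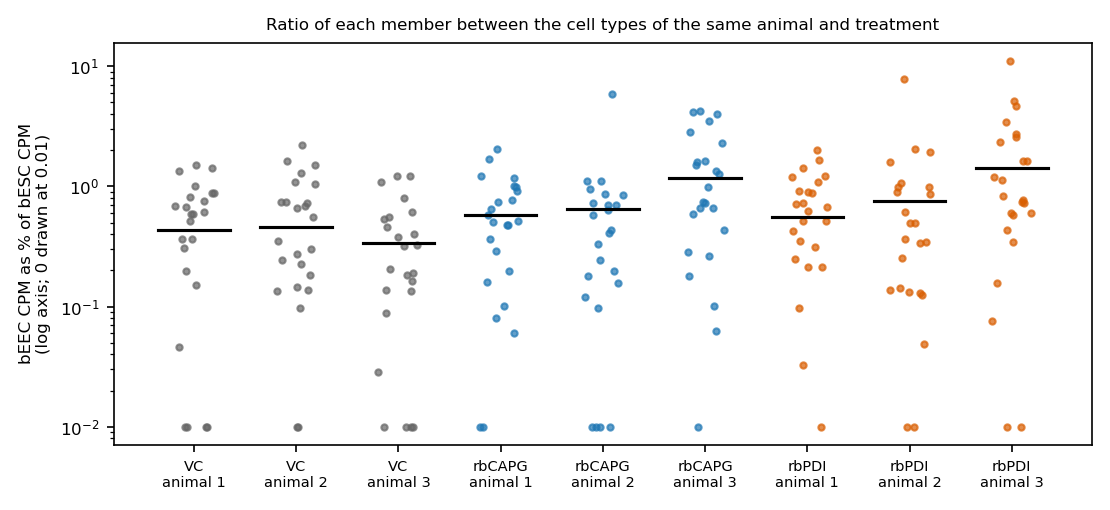
CPM of each member in bEECs as a percentage of its CPM in bESCs of the same animal and treatment (log axis, values under 0.01% drawn at 0.01); each point is 1 member and the black line is the ratio of the summed levels. Ratios within a sample spread widely around the line, up to 11.1% in animal 3 with rbPDI, while other members of that sample are at 0%.

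The difference between the cell types held in treated devices. With rbCAPG, all 24 members were called higher in bESCs than in bEECs, beside 18.3% of all genes. With rbPDI, all 24 were called higher too, beside 18.6%. The largest adjusted p was 8.80e-05 and 0.000303 (edgeR). The rule had set 20 CPM against 0.5 CPM with VC in the same animals. These calls could therefore be foreseen, and nothing is read from the shares of all genes. Both limits of the rule were still met by 8 members with rbCAPG and 5 with rbPDI. For members with more than 3 counts in some bEEC sample, the fold ran from 20.5 to 549 with rbCAPG (21 members) and from 13.2 to 332 with rbPDI (20 members). The other 3 and 4 members had 3 counts or fewer in every bEEC sample, and against that floor, as the mean CPM of 3 counts over the bEEC libraries, they were at least 226-fold to at least 1001-fold higher in bESCs with rbCAPG, and at least 157-fold to at least 1207-fold higher with rbPDI. The median log2 difference was 7.18 and 6.95, with members at the floor set to their bound, beside −0.01 and 0.02 over all genes. SST was 6.45 and 7.25 higher on the log2 scale in bESCs with rbCAPG and rbPDI.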

How the data were processed

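RNA was sequenced from 18 samples, 6 groups of n = 3. Per the labels and methods, the authors made SMART-Seq libraries, used Trimmomatic for trimming and STAR for alignment to ARS-UCD1.3, and counted read pairs on Ensembl release 113 genes with featureCounts, dividing reads with several matches or overlapping genes into fractions. The deposited values are thus estimated counts, not normalized, for 36075 genes, and 23.3% were not whole. No strand option is given in the sources used here, so reads of overlapping or near-identical genes cannot be separated. 0 columns were left unused.

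CPM used unrounded counts and the column total. For tests, counts were rounded. edgeR 4.0.16 in R 4.3.3 was fitted to all 18 samples with a mean per group (filterByExpr, 17931 genes; TMM; 12 residual degrees of freedom), and the standard error is the absolute log2 fold change over the square root of F. Alternatives were DESeq2 1.42.0 (Wald, local fit), DESeq2 size factors, other filters and samples, other limits of the rule, each sample left out, and the animal as a block (8 residual degrees of freedom within a cell type). The scripts were tested on simulated data. Replicate numbers mark the 3 animals, each device holding both cell types of 1 animal. Deviations of same-numbered samples correlated with a mean r of 0.501 in bEECs (0.239 to 0.737) and 0.433 in bESCs (−0.03 to 0.804). Between the cell types the mean r was lower, at 0.164 (−0.05 to 0.429). The smallest and largest libraries held 10072851 and 44253149 counts.

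The members and lists were chosen with earlier results of these data known. Genes to be named were members with a symbol that were called, in a marker or gene list, highest in treated bEECs, or nearest the limits, plus at most 2 identifiers that rose and 2 that fell. Since 2 of 24 members had a symbol and 0 of the lists' genes were members, further identifiers were printed where values were singled out after they were seen. Symbols came from 245 identifiers in the study's lists of genes called with rbCAPG, 190 of which have a symbol. A reference gene table of assembly ARS-UCD2.0 matched none, so position, sequence and biotype were not analysed here.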

Additional observations from a re-analysis of the deposited data

How the results depend on the processing

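In bEECs, the members called with rbCAPG (0) became 2 with DESeq2, 1 without the filter on low counts and 3 with the replicate block. Those called with rbPDI (2) became 5, 3 and 4, and 0 in the fit to bEECs alone. Of all genes, DESeq2 called 1.49% higher with rbCAPG and 1.96% with rbPDI, and the block 2.04% and 2.57%. No such share is given for the fits without the filter or to bEECs alone. The animals pair the samples, and the block changed the count of called members in no other comparison. DESeq2 called 1 member in the interaction with rbPDI, beside 0.485% of all genes. With each sample left out in turn, the members called in bEECs with rbPDI ran from 0 to 2.

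Other limits of the rule changed most counts. At 10 CPM in bESCs and 1 CPM in bEECs there were 145 members. In bESCs 1 was called with each protein, beside 0.0948% of all genes with rbCAPG and 0.178% with rbPDI. In bEECs 5 and 8 were called, beside 0.513% and 0.77% of all genes called higher. The interactions had 1 and 2 (0.0669% and 0.0948%). Between the cell types 144 were called with each protein (18.3% and 18.6% called higher). VC samples chose this set too, so nothing is read from these shares. Of the 145, 39 were present in bEECs with each protein. Because this set admits genes up to 1 CPM in bEECs with VC, some may have met the 0.5 CPM limit with VC already. The summed level of the 145 in bEECs rose 10.5-fold and 19.8-fold. Without CXCL2, a neutrophil chemokine that led the sum, it rose 2.57-fold and 3.80-fold (left out after the data were seen). At 50 and 0.25 CPM there was 1 member, with 0 called in bEECs, 1 between the cell types, 0 present in bEECs and a stromal ratio of 0.854 with rbCAPG. CPM with TMM factors left 15 members, and the limits on rbCAPG or rbPDI samples 14 and 10. Leaving 1 VC animal out of the rule gave 30 to 47 members, of which 2 to 9 were present with rbCAPG and 2 to 7 with rbPDI. The rule without VC of animal 1 gave summed ratios of 4.38 and 8.24 in bEECs, and 1.58 and 1.91 without ENSBTAG00000014546, which led those sums. With each animal left out of the sums, an alternative added after the data were seen, the ratios in bEECs were 1.61 to 2.298 and 1.66 to 3.03, and those in bESCs 1.02 to 1.18 and 0.943 to 1.15. Without SST, also added, the ratios in bEECs were 1.86 and 2.14. With more than 3 counts in all 3 samples as the limit, 15 and 14 members were present in treated bEECs, beside 12 with VC, and at 1 CPM 0 and 0.

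Signs turned only among values of named members that were not called. Without 1 sample, FAM110B in bESCs ran from −0.13 to 0.33 on the log2 scale for rbPDI against VC (−0.13, −0.05 and −0.11 in the fits that turned) and from −0.37 to 0.058 for rbPDI against rbCAPG. In bEECs, rbPDI against rbCAPG ran from −0.31 to 0.88 for SST (−0.20 in the other fit that turned) and from −0.51 to 0.57 for FAM110B (−0.03 in the other). Levels of a few counts in bEECs limit what can be told of single members there, and the causes of these changes were not tested.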

Other observations

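The mirror set of 90 genes, at 20 CPM or more in all 3 bEEC samples with VC and below 0.5 CPM in all 3 bESC samples with VC, was summed in the same way. In bESCs its summed level ran from 5.53 to 8.26 CPM with VC, from 9.06 to 16.2 CPM with rbCAPG and from 13.9 to 61.0 CPM with rbPDI. In bEECs it ran from 11370 to 16648 CPM with VC, from 17048 to 20226 CPM with rbCAPG and from 15572 to 21669 CPM with rbPDI. MUC1 in bESCs had 0.0732, 0.128 and 0.348 CPM with VC, 0.446, 0.746 and 0.368 CPM with rbCAPG, and 1.19, 0.692 and 0.738 CPM with rbPDI, so every treated sample was above every VC sample. VC samples chose the mirror set too, and MUC1 was named from genes the study called with rbCAPG. These values are a description with no test.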
